A study of Homo sapiens with 10 samples.

Results

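The heat shock chaperone genes are a family by function: HSPA1A, HSPA1B and HSPA8 of the HSP70 class, HSPH1 of the HSP110 class, DNAJB1 of the HSP40 class, HSP90AA1 and HSP90AB1 of the HSP90 class, the small heat shock protein HSPB1, and the mitochondrial pair HSPD1 and HSPE1. These 10 genes were chosen by name, 10 of 20136 coding genes in the GENCODE annotation of the human genome build hg19. HSPA1A, HSPA1B, HSPH1, DNAJB1, HSP90AA1 and HSPB1 were taken as the 6 inducible members, whose transcription is known to surge on heat stress. HSPA8, HSP90AB1, HSPD1 and HSPE1 were taken as the 4 constitutive members, which are known to be expressed at a high level in unstressed cells, although HSPD1 and HSPE1 also respond to heat. The study mapped chromatin proteins by ChIP-seq in HCT116, a human colorectal carcinoma cell line grown in DMEM with fetal bovine serum. The labels name no heat shock, drug, knockdown or other treatment, so every value below describes unstressed cells of a single line and culture condition. The labels list 10 libraries, each with another antibody or input DNA, and 5 of them have a peak list here: total RNA polymerase II (Pol II), KAP1, Larp7, Hexim1 and Cdk9. With 1 library per antibody no value has a replicate error, no test between libraries was possible, and all comparisons are descriptions.

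Heat shock genes are the classical case of polymerase pausing: Pol II starts transcription, halts just past the start site and waits for a release signal. Release needs the kinase P-TEFb, whose catalytic subunit is Cdk9, and much of the P-TEFb of a cell is held inactive in the 7SK snRNP together with Hexim1, which inhibits the kinase, and Larp7, which binds the 7SK RNA. KAP1, also named TRIM28, is a chromatin scaffold protein that the title of the series names as the recruiter of the 7SK snRNP to promoters. On heat stress the transcription factor HSF1 binds heat shock elements, inverted repeats of the short unit NGAAN, and the chaperone genes are switched on.

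The promoters of the members show which of them carry such elements, so the reference sequence just before the start of the canonical transcript is given for the 6 members whose sequence there lies outside annotated exons. Each runs 5′ to 3′ on the strand of the gene, and capitals mark a heat shock element of 2 units, the triplets GAA and TTC in either order with any 2 bases between them.
HSPA1A: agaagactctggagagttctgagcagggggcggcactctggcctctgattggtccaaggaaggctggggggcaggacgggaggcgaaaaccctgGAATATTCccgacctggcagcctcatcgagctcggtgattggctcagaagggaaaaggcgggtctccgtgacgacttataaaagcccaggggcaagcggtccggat
HSPA1B: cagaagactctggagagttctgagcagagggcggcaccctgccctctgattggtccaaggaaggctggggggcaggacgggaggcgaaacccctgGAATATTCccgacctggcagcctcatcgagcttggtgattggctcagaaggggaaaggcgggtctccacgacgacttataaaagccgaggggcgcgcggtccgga
DNAJB1: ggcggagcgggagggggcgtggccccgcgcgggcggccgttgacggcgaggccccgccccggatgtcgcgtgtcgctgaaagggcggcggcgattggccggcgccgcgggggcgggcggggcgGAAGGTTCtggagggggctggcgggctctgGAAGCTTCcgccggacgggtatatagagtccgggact
HSP90AA1: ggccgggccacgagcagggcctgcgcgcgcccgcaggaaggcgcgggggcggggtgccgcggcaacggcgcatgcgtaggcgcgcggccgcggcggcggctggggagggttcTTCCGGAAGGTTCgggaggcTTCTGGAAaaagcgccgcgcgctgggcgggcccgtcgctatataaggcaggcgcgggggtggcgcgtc
HSPB1: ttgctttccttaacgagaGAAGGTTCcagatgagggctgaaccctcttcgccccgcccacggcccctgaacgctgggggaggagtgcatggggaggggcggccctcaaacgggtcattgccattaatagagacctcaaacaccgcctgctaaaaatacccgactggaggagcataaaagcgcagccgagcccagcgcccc
HSP90AB1: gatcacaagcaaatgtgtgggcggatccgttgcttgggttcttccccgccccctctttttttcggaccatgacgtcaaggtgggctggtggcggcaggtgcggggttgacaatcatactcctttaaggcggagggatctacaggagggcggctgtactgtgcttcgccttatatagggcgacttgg
They cover chr6:31783120-31783319 (plus strand) for HSPA1A, chr6:31795315-31795514 (plus) for HSPA1B, chr19:14629220-14629409 (minus) for DNAJB1, chr14:102553382-102553581 (minus) for HSP90AA1, chr7:75931790-75931989 (plus) for HSPB1 and chr6:44214638-44214823 (plus) for HSP90AB1, all in hg19. HSPA1A and HSPA1B share one short element at the same place, at bases -106 to -99 and -105 to -98 from their starts. DNAJB1 has 2 elements, and in HSP90AA1 a pair of overlapping elements joins into a longer one. No element stands in the HSP90AB1 stretch.

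For HSPH1, HSPA8 and HSPD1, windows of 30 bases are shown around their longer elements of 3 alternating units, GAA, TTC and GAA or TTC, GAA and TTC with any 2 bases between neighbours, again in capitals.
HSPH1: tgccgcagaTTCTGGAAAGTTCtgatcagt
HSPA8 near the start: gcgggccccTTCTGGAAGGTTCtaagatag
HSPA8 farther upstream: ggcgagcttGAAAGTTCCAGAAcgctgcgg
HSPD1: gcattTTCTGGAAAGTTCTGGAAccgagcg
These lie at chr13:31736080-31736109, chr11:122932879-122932908, chr11:122933054-122933083 and chr2:198364785-198364814, all read on the minus strand. The HSPD1 window lies between the starts of HSPD1 and HSPE1, at bases -250 to -221 of the first and -318 to -289 of the second. It holds 2 overlapping elements of 3 units, at bases -245 to -233 and -240 to -228 of HSPD1, and its capitals run through both.

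In the 250 bases before the canonical start, searched on both strands, an element of 2 units was found in 8 of 10 members, against 9.52% of all 20136 coding promoters. The 8 were all 6 inducible members with HSPA8 and HSPD1. An element of 3 units, which always holds 2 overlapping elements of 2 units, was found in 4 of 10 members (HSPH1, HSP90AA1, HSPA8 and HSPD1), against 0.318% of coding promoters. A TATA box spelled TATAAA on the strand of the gene was found in HSPA1A and HSPA1B only, against 6.9% of coding promoters, at bases -30 to -25 and -29 to -24. Other spellings were not searched, and the sequences of DNAJB1, HSP90AA1 and HSP90AB1 above hold tatata near their 3′ ends. CCAAT or its reverse ATTGG was found in 5 of 10 members (34.2% of coding promoters), and GGGCGG or its reverse CCGCCC, the core of the site that SP1 is known to bind, in 10 of 10 (58.7%). The G and C content of the windows ran from 56.4% in HSP90AB1 to 78.4% in DNAJB1, beside a median of 63.2% over all coding promoters. These matches describe letters in a window and do not show that a factor was bound.

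The Pol II list held 92939 peaks, the KAP1 list 61312, the Larp7 list 184243, the Hexim1 list 229679 and the Cdk9 list 120113. No source used here gives the sequencing depth behind a list or its control library, so a peak of low fold that is missing cannot be told from one that was not detectable. The labels call HCT116 endothelial. Of 12 marker genes of colon epithelium, 10 had a Pol II peak at the promoter, with a fold of 117 at EPCAM and 97.6 at CDH1. Pol II was at 73.5% of all coding promoters, so the epithelial count alone says little about the cell type. Of the 11 endothelial markers found in the annotation, 5 had one, and CDH5, KDR, TEK, TIE1, VWF and ERG had none. ESAM, at a fold of 92.4, was the endothelial marker of highest Pol II fold. KRT20 and VIL1 were the epithelial markers without a Pol II peak.

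At the promoter, taken as 1 kb on each side of the canonical start, Pol II and all 4 partner proteins were present at nearly every member. Pol II had a peak at 10 of 10 members (73.5% of coding genes), KAP1 at 10 of 10 (67.8%), Larp7 at 10 of 10 (77.5%), Hexim1 at 10 of 10 (80.7%) and Cdk9 at 9 of 10 (71.9%). All 5 proteins were present together at 9 of 10 members, against 63.0% of coding genes. HSPA1B was the exception, with no Cdk9 peak within 1 kb of its start. Since 14795 coding genes had Pol II at the promoter, the shares among those are the closer comparison: KAP1 at 88.2%, Larp7 at 95.1%, Hexim1 at 98.5% and Cdk9 at 91.7%. The members' counts were therefore near those of any promoter with Pol II.

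With the outermost annotated 5′ end of each gene in place of the canonical start, the promoter counts were the same, 10 members for Pol II (70.5% of coding genes), 10 for Hexim1 (78.7%), 10 for Larp7 (75.1%), 10 for KAP1 (64.6%) and 9 for Cdk9 (69.1%), with all 5 at 9 members (59.7%). The folds there belong in part to other promoters, because the outermost end lies 52655 bp upstream of the canonical start for HSP90AA1, 196 bp from the start of WDR20, and 41994 bp upstream for DNAJB1. It lies 16897 bp upstream for HSPD1. The Pol II fold at the outermost end was 8.96 for DNAJB1 and 67.1 for HSPD1, against 135 and 134 at the canonical start, and 89.5 for HSP90AA1, against 86.1. Values below are therefore given at the canonical start.

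Stricter reading of the lists lowered the counts of some proteins more than others, among the members and among all coding genes. When a −log10 q of 5 or more was required, Pol II stayed at 10 members (70.9% of coding genes) and Hexim1 at 10 (70.2%), KAP1 at 8 (25.9%), Larp7 at 5 (49.5%) and Cdk9 at 2 (15.6%). All 5 were then found together at 2 members (9.76%). At the outermost 5′ ends the same requirement left Pol II at 10 members (67.9%), Hexim1 at 10 (67.5%), KAP1 at 5 (24.4%), Larp7 at 4 (47.2%), Cdk9 at 1 (14.9%) and all 5 at 1 (9.16%). KAP1 fell under that threshold at HSPA1A, where its −log10 q was 4.78, and at HSPA1B, where it was 2.49. At the canonical start the 4 constitutive members passed it narrowly for KAP1, at 5.05 to 5.73. HSPD1 and HSPE1 did so through 1 shared peak, at 5.05. The shares given here are over all coding genes, not over those with Pol II at the promoter. The members that kept Cdk9 were DNAJB1, at a −log10 q of 6.88, and HSP90AA1, at 6.89. With only the 20000 peaks of smallest p in each list, the counts were 9 for Pol II (56.7%), 9 for Hexim1 (55.2%), 9 for KAP1 (43.9%), 8 for Cdk9 (42.5%) and 4 for Larp7 (32.1%), and all 5 were found at 4 members (17.3%). At the outermost ends Larp7 was then found at 3 members (30.6%) and all 5 at 3 (16.1%).

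**Figure D1:**
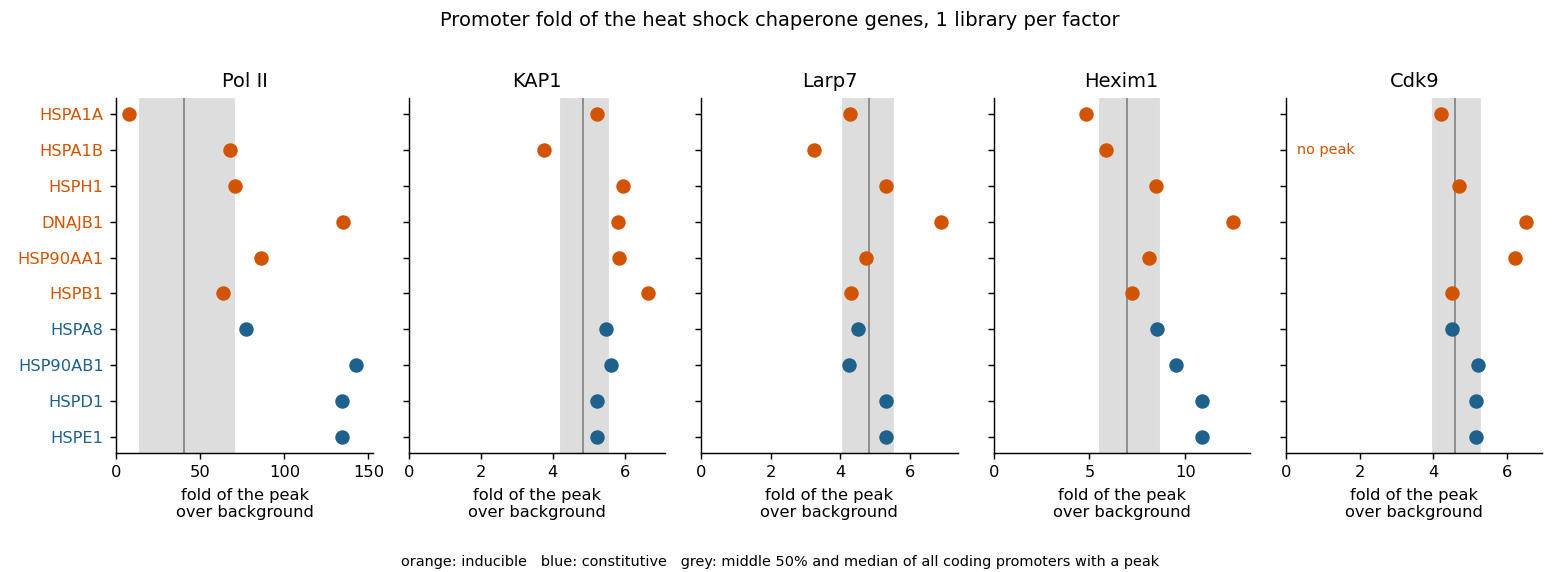
Fold of the strongest promoter peak over background (horizontal axis, linear, a separate scale for each protein because folds of different lists are not comparable) for each member (rows), with inducible members in orange, constitutive members in blue, and the median and middle 50% of all coding promoters with a peak in grey. HSPA1A lies below the grey band for Pol II, DNAJB1, HSP90AB1 and the HSPD1 and HSPE1 promoter lie between 134 and 143, and HSPA1B has no Cdk9 peak.

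The authors' fold of a peak over background is used here to rank peaks within a list, and each percentile gives the place of a member among all coding promoters that have a peak in that list. The Pol II fold of the members covered nearly the whole range of promoters, from 7.38 to 143, beside a median of 40.4 over coding promoters. HSP90AB1, the constitutive cytosolic HSP90 (chr6:44213903-44221625), had the highest value among the members, a fold of 143 at the 99.1st percentile. DNAJB1, the J-domain protein that activates HSP70 (chr19:14625581-14671203), followed with 135 at the 98.4th percentile, and HSPD1 and HSPE1 shared a single peak of 134 at the 98.3rd. These genes belong to the strongest Pol II promoters of the list. HSP90AA1, the stress-inducible HSP90 (chr14:102547079-102606036), had a fold of 86.1, and HSPA8, the cognate HSP70 that folds new proteins and uncoats clathrin (chr11:122928197-122933938), had 77.0. HSPH1, a nucleotide exchange factor of HSP70 (chr13:31709110-31736525), had 70.5. HSPA1B, one of the stress-inducible HSP70 copies (chr6:31795515-31798031), had 67.6. HSPB1, the small heat shock protein also called HSP27 (chr7:75931990-75933612), had 63.5. These 5 lie between the 69.6th and the 84.3rd percentile. HSPA1A (chr6:31783320-31785723) stood apart at 7.38, the 14.6th percentile. Some of these peaks also lie within 1 kb of the annotated start of another gene. It is the coding gene TECR at DNAJB1, and noncoding genes at HSPA8 and HSPA1B. The same holds for the promoter peaks of the other proteins at these genes. How much of a fold belongs to the other start was not tested.

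KAP1 folds of the members ran from 3.75 to 6.66, beside a coding median of 4.84. HSPB1 had the highest, 6.66 at the 93.6th percentile. HSPH1 had 5.97, HSP90AA1 5.84 and DNAJB1 5.83, which places them between the 81.5th and the 84.2nd percentile. HSP90AB1 had 5.63, HSPA8 5.48, HSPA1A 5.24 and the HSPD1 and HSPE1 promoter 5.22. HSPA1B had the lowest, 3.75 at the 10.3rd percentile. KAP1 and Pol II did not rank the members alike: HSPA1A was at the 65.9th percentile for KAP1 with Pol II at the 14.6th, and HSPB1 led KAP1 with a Pol II fold among the lower ones.

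Among the 7SK snRNP proteins, DNAJB1 had the highest fold of the members in every list. Its Larp7 fold was 6.89 (97.0th percentile), its Hexim1 fold 12.5 (98.1st percentile) and its Cdk9 fold 6.51 (95.6th percentile). These DNAJB1 peaks lie within 1 kb of the TECR start as well. HSP90AA1 came second for Cdk9, the kinase, with 6.23, but was in the middle for Larp7 with 4.74. The Hexim1 fold of the HSPD1 and HSPE1 promoter was 10.9 and that of HSP90AB1 9.51, the next highest. HSPA8 had 8.53, HSPH1 8.45, HSP90AA1 8.12 and HSPB1 7.20, all above the coding median of 6.97, and the 2 copies HSPA1A and HSPA1B lay below it with 4.81 and 5.87. Larp7 folds of the members lay on both sides of the coding median of 4.82: HSPH1 and the HSPD1 and HSPE1 promoter had 5.31, and HSPA8, HSPB1, HSPA1A and HSP90AB1 had 4.51, 4.30, 4.28 and 4.24. HSPA1B had the lowest Larp7 fold, 3.26 at the 6.40th percentile. Cdk9 folds of the other members ran from 4.19 at HSPA1A to 5.22 at HSP90AB1, beside a coding median of 4.58.

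As a group, the members had a median percentile of 81.8 for Pol II, 75.2 for KAP1, 73.5 for Hexim1, 63.2 for Cdk9 and 42.6 for Larp7, with HSPA1B counted as 0 for Cdk9. Over the 9 members with a Cdk9 peak, the median percentile was 71.6. Promoters with a high Pol II fold had higher median folds of all 4 partner proteins than coding promoters as a whole, so the 9 members with a Pol II fold of at least 60, a threshold set after the values were seen, were put beside the 4894 other coding promoters that passed it. Their median KAP1 fold was 5.63 against 5.28, their Hexim1 fold 8.53 against 8.61, their Cdk9 fold 5.15 against 5.09 and their Larp7 fold 4.74 against 4.98. All these medians lie inside the middle 50% of the other strong promoters, which runs from 4.62 to 6.03 for KAP1.

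The inducible and the constitutive members overlapped in every list. The Pol II fold had a median of 69.1 over the 6 inducible members (7.38 to 135) and of 134 over the 4 constitutive ones (77.0 to 143), a ratio of 0.515. DNAJB1 and HSP90AA1, both inducible, lay within the constitutive range, and the other 4 inducible members lay below it. The ratio was 0.584 without HSPA1A and HSPA1B, and 0.621 at the outermost 5′ ends. HSPD1 and HSPE1 count as 2 constitutive members although they share a promoter. Counted as 1 promoter, they left the ratio at 0.515 at the canonical start but moved it to 0.852 at the outermost ends. For KAP1 the ratio of medians was 1.09 at the canonical start and 0.973 at the outermost ends, so it had no fixed direction. The KAP1 folds of the constitutive members, 5.22 to 5.63, were nested inside those of the inducible members, 3.75 to 6.66. The same nesting held for Hexim1, at 8.53 to 10.9 inside 4.81 to 12.5, and for Larp7, at 4.24 to 5.31 inside 3.26 to 6.89. For Cdk9 the constitutive range was 4.51 to 5.22 and the inducible one 4.19 to 6.51.

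HSPA1A and HSPA1B, neighbours on chromosome 6 whose starts lie 12195 bp apart in the same direction, encode nearly the same HSP70 protein and had Pol II folds of 7.38 and 67.6. For KAP1 and Larp7 the order was the other way round, 5.24 against 3.75 and 4.28 against 3.26. Hexim1 had 4.81 against 5.87, and Cdk9 4.19 against no peak. The values of this pair are uncertain, because reads from identical sequence cannot be assigned to a copy and no source used here says how such reads were treated. The copies were 93.6% identical over the 250 bases before the start, 94.6% over the first 500 transcribed bases and 99.8% over transcribed bases 501 to 2000. Upstream of base -250 they were 48.1% identical. Of the 32-base stretches in the strongest Pol II peak, 4.91% at HSPA1A and 27.7% at HSPA1B occur elsewhere in hg19. Over the whole promoter window, 1 kb each side of the start, 41.0% and 41.1% do, and in their exons 76.7% and 73.5% do.

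The HSPA1B peaks were short. They measured 501 bp for Pol II, 218 bp for KAP1, 422 bp for Larp7 and 254 bp for Hexim1, beside medians over coding promoters of 786, 831, 1146 and 1379 bp. At HSPA1A the Pol II signal was split into 3 peaks in the promoter window, the strongest running only from 50 to 243 bp past the start. Its Hexim1 peak was 1726 bp wide. HSPA1L, a testis-expressed HSP70 gene on the opposite strand 260 bp from HSPA1A, shares the HSPA1A promoter peaks, with the same 5 folds. The part of the repeated sequence in these differences was not tested.

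HSPD1, the HSP60 chaperonin of mitochondria (chr2:198351308-198381461, minus strand), and HSPE1, its lid HSP10 (chr2:198364864-198368173, plus strand), are transcribed away from each other from starts 539 bp apart. Each protein had 1 peak across both starts: the Pol II peak was 2016 bp wide, the KAP1 peak 1761 bp, the Larp7 peak 1874 bp, the Cdk9 peak 1877 bp and the Hexim1 peak 2703 bp. The Pol II peak had its summit 41 bp past the HSPD1 start, which is at -580 bp from the HSPE1 start. It reached 1072 bp into HSPD1 and 404 bp into HSPE1, and the KAP1 peak reached 867 bp and 354 bp. A single peak gives one fold for both genes, so how much of it belongs to each gene cannot be told apart. Another coding gene, HSPE1-MOB4, starts within 1 kb of these shared peaks, 273 bp from the outermost 5′ end of HSPE1.

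**Figure D2:**
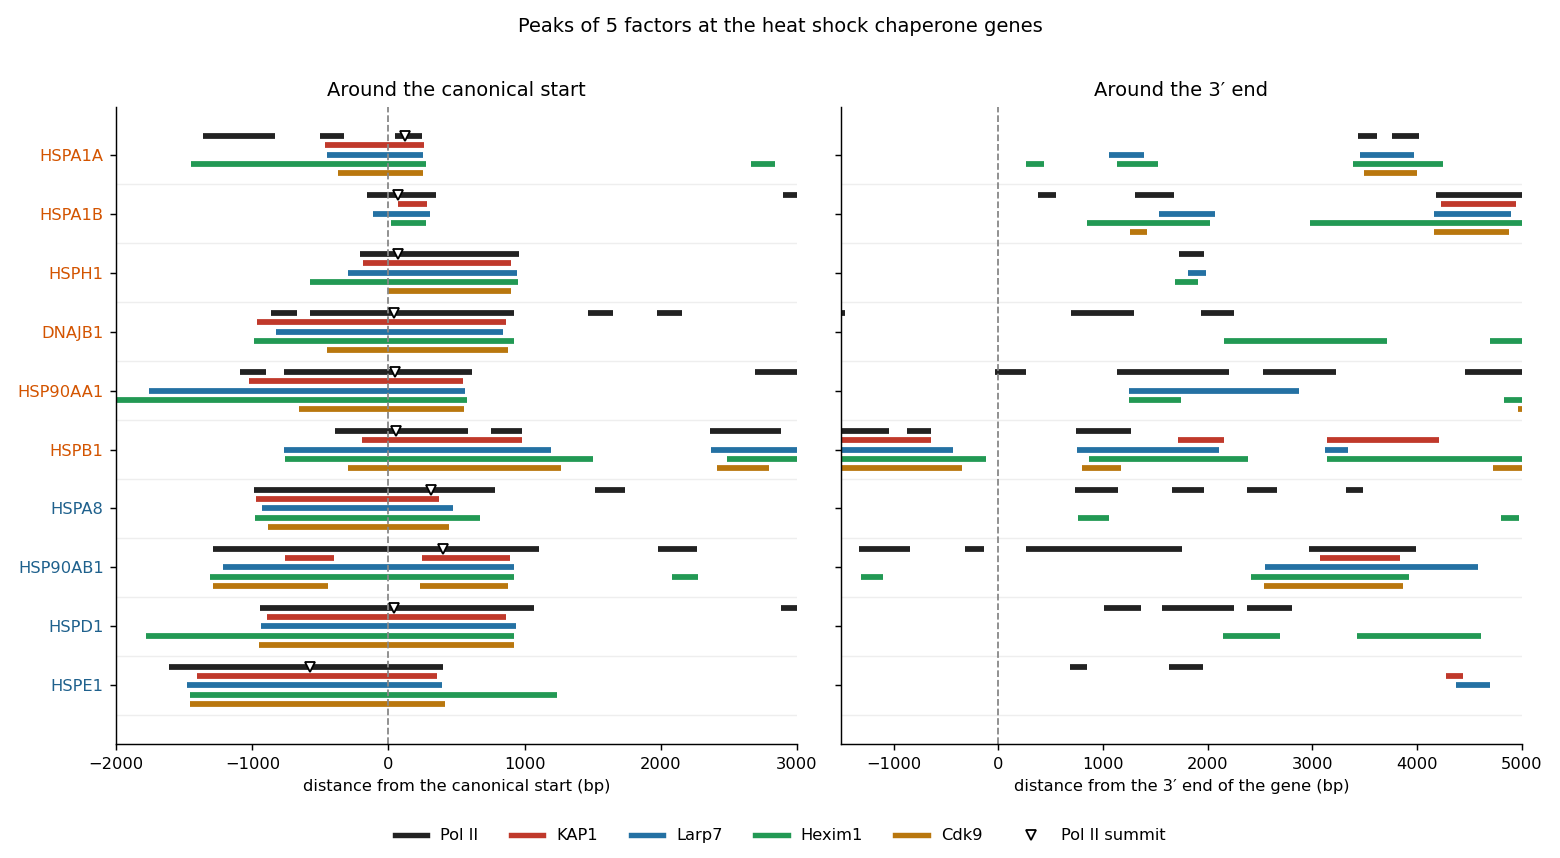
Extent of each peak (bars, coloured by protein) at the 10 members, by distance in bp from the canonical start (left) and from the 3′ end of the gene (right), both in the direction of transcription, with triangles at the summit of the strongest Pol II promoter peak. The peaks of the partner proteins lie across the Pol II summit, the bars between the promoter and the 3′ end are few, and Pol II bars stand again past the 3′ end.

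The position of Pol II separated some members. Its summit lay past the start by 38 bp at DNAJB1, 51 bp at HSP90AA1, 57 bp at HSPB1, 69 bp at HSPA1B, 72 bp at HSPH1 and 118 bp at HSPA1A, so all 6 inducible members fell between 38 and 118 bp. This is where paused polymerase is known to stand, and it is also common: the median over 14795 promoters was 65 bp, and 36.6% of summits lay 30 to 120 bp past the start. Among the constitutive members, the shared HSPD1 and HSPE1 peak had its summit within the inducible range, 41 bp past the HSPD1 start. HSPA8 and HSP90AB1 differed, with summits 312 bp and 398 bp past the start, a range of 300 to 400 bp that held 3.97% of promoter summits. Such distances depend on the start chosen, and HSPA8 has 20 annotated transcript starts. A noncoding gene also starts within 1 kb of the HSPA8 Pol II peak. Both windows, 30 to 120 bp and 300 to 400 bp, were chosen after the values were seen. The partner proteins covered the same spot: the Pol II summit lay inside the KAP1, Larp7 and Hexim1 peak at 10 of 10 members and inside the Cdk9 peak at 9 of 9. That was the rule elsewhere too: among coding promoters with both peaks, the strongest KAP1 peak held the Pol II summit in 92.5%, that of Larp7 in 97.1%, that of Hexim1 in 98.5% and that of Cdk9 in 94.3%. At HSP90AB1 KAP1 was split into a weaker peak upstream of the start, with a fold of 4.50, and a stronger one from 250 to 890 bp past it, and Cdk9 was split in the same way, with its stronger peak from 235 to 876 bp. The Pol II summit lay inside these downstream peaks.

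Along the body, from 1 kb past the canonical start to the 3′ end, KAP1, Larp7 and Cdk9 had almost no separate peaks at the members. A body peak that did not reach into the promoter window was found for KAP1 at 0 of 10 members, against 52.7% of the 14795 genes with Pol II at the promoter. For Larp7 it was 1 of 10 (80.8%), for Cdk9 1 of 10 (73.6%), for Hexim1 4 of 10 (83.6%) and for Pol II 5 of 10 (65.0%). The members are short, with a median of 4138.5 bp between start and 3′ end, and long genes hold more peaks. Among the 6676 genes of the members' range of lengths, 1623 to 26932 bp, the shares were 64.2% for Pol II, 72.2% for Hexim1, 68.2% for Larp7, 60.3% for Cdk9 and 45.4% for KAP1, but the median of that range was still 10987.5 bp.

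A closer match leaves out HSPH1 and HSPD1, the 2 longest members, and takes the 2036 genes of 1623 to 6788 bp, whose median was 4109.5 bp. In that range a separate body peak was found at 0 of 8 members for KAP1 (30.8%), 0 of 8 for Larp7 (40.0%), 0 of 8 for Cdk9 (36.9%), 2 of 8 for Hexim1 (41.3%) and 4 of 8 for Pol II (56.3%). The separate Larp7 and Cdk9 body peaks both lay in HSPH1, at about the same place. The Larp7 peak, of fold 3.54, ran from 3353 to 3604 bp past the start. The Cdk9 peak, of fold 2.77, ran from 3437 to 3633 bp. A Hexim1 peak of fold 3.46 lay there too, and Pol II and KAP1 had no body peak in that gene. At HSPB1 the Larp7 and Cdk9 promoter peaks ran on into the body, to 1191 and 1271 bp past the start, and were not counted as separate. With any overlap counted, Larp7 and Cdk9 each lay in the body of 2 of 10 members (81.2% and 72.1% of coding genes). Counted from the outermost 5′ ends instead, KAP1 lay along the body of 6 members (58.9%) and Pol II of 6 (64.2%), and that body takes in canonical promoter peaks, wholly or in part: the canonical start lies 484 to 52655 bp inside the outermost end in HSPH1, HSP90AB1, HSPA8, HSPD1, DNAJB1 and HSP90AA1. With that body begun at 2 kb, KAP1 lay there in 3 members (54.5%). From the canonical start, KAP1 overlapped the body zone of 0 members (52.7%), as it did with a −log10 q of 5 or more (13.7%), among its 20000 peaks of smallest p (28.1%) and when the middle of the peak had to lie there (48.0%). Among the 20000 Pol II peaks of smallest p, 2 members had one there (24.1%).

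**Figure D3:**
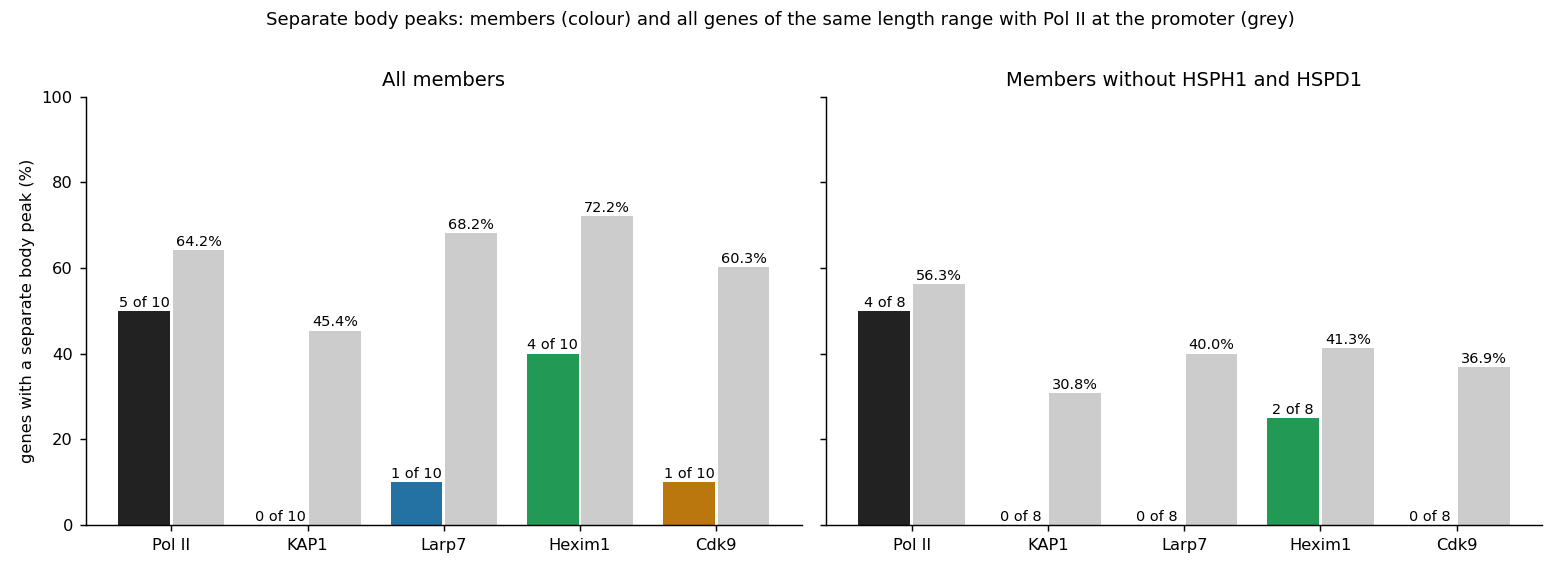
Share of genes (vertical axis, percent) with a body peak that does not reach the promoter window, for each protein (horizontal axis), in the members (coloured bars, with counts above) and in all genes of the same range of lengths with Pol II at the promoter (grey bars). KAP1 stands at 0 of 10 members beside 45.4% on the left, and at 0 of 8 beside 30.8% in the shorter range on the right, while Pol II stands at 4 of 8 beside 56.3%.

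The Pol II peaks in the body were few and low. There were 13, in HSPD1 (4), HSP90AA1 (3), HSP90AB1 (3), DNAJB1 (2) and HSPA8 (1). Both peaks in DNAJB1, the one in HSPA8 and 1 in HSP90AB1 lay within 1 kb of the start of another gene (TECR, SNORD14C and MIR4647). Without such peaks, 9 remained in 3 of 10 members, against 61.5% of genes with Pol II at the promoter and 59.9% in the members' range of lengths. In the shorter range it was 2 of 8 members (48.2%). The highest were 9.86 in HSP90AB1, 9.58 in HSP90AA1, 7.79 in HSPD1, 7.10 in HSPA8 and 5.99 in DNAJB1. Set against the promoter of the same gene, the highest body fold was 4.45% to 11.1%, with a median of 6.91%. The median was 26.7% over the 9616 genes with both peaks, and 11.3% over those with a promoter fold of at least 60, which is nearer to the members. Of the 13 summits, 10 lay in introns of the canonical transcript, 2 in exons (in DNAJB1 and HSP90AB1) and 1 just past the end of HSP90AA1.

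Exons of most members hold sequence that is repeated in the genome. The share of 32-base stretches of the canonical exons that occur more than once in hg19 was 68.2% for HSPD1, 63.7% for HSPE1, 52.5% for HSPA8, 46.9% for HSP90AA1, 44.1% for HSP90AB1, 28.9% for HSPB1 and 16.5% for DNAJB1. In the introns it was lower, at 14.8% in HSPD1, 12.8% in HSP90AA1, 10.2% in HSPE1, 6.71% in HSP90AB1, 5.63% in HSPB1, 1.12% in HSPA8 and 0 in DNAJB1. HSPH1 had 0.832% in exons and 3.22% in introns. The strongest Pol II promoter peak held at most 2.39% of such stretches in the members other than HSPA1A and HSPA1B. What the repeated exons take from the body counts was not tested.

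Past the 3′ end Pol II was found again. Within 5 kb of the 3′ end a Pol II peak was found at 10 of 10 members, against 39.8% of coding genes. Hexim1 was found at 9 (60.7%), Larp7 at 7 (53.6%), Cdk9 at 5 (40.9%) and KAP1 at 4 (28.3%). With a −log10 q of 5 or more, KAP1 was left at 1 member (5.57%). Among the 20000 peaks of smallest p, Pol II was found past the 3′ end of 5 members (19.0%) and KAP1 of 2 (12.8%), and within 2 kb KAP1 was found at 1 (17.4%). Some of these peaks stand at the start of another gene: the highest Pol II fold, 110, lay past HSPA1B at the start of the noncoding gene SNHG32, and one of 64.7 past HSP90AB1 at the start of SLC35B2, a coding gene whose own 3′ end lies 208 bp from that of HSP90AB1. When peaks within 1 kb of any other annotated start were set aside, a rule added after the peaks were seen, Pol II remained at 8 of 10 members (31.1% of coding genes). The share was 38.9% of genes with Pol II at the promoter and 48.7% of such genes in the members' range of lengths. In the shorter range it was 52.5%, beside 6 of 8 members. Hexim1 remained at 8 members (49.0%), Larp7 at 5 (42.0%), Cdk9 at 3 (30.2%) and KAP1 at 2 (17.7%). In the members' range of lengths the shares were 60.4% for Hexim1, 53.5% for Larp7, 41.4% for Cdk9 and 27.5% for KAP1. The counts of the last 3 lay slightly below these shares, a small difference among 10 members. The rule on other starts did not set aside peaks that lay elsewhere inside another gene. Whether the peaks past HSPE1 lie inside HSPE1-MOB4 was not tested.

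**Figure D4:**
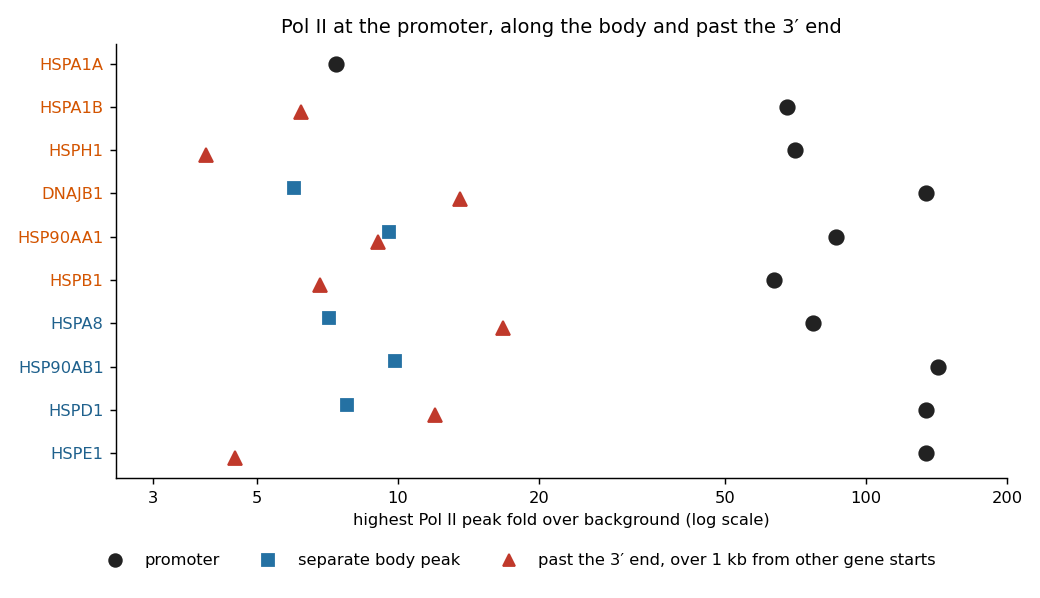
Highest Pol II fold over background (horizontal axis, log scale) at the promoter (circles), in a separate body peak (squares) and within 5 kb past the 3′ end at over 1 kb from other gene starts (triangles), for each member (rows, inducible in orange, constitutive in blue). Every triangle lies far to the left of the circle of its gene, and in DNAJB1, HSPA8 and HSPD1 it lies to the right of the square.

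HSPA8 had the highest such peak, with a fold of 16.7 from 728 to 1147 bp past its 3′ end. DNAJB1 followed with 13.6 from 699 to 1300 bp, HSPD1 with 11.98 from 1006 to 1359 bp, and HSP90AA1 with 9.07 from 1133 to 2208 bp. Pol II is known to run on past the site where the transcript is cut and to slow there before it leaves the DNA. HSPB1 had 6.80 from 739 to 1265 bp, HSPA1B 6.20, HSPE1 4.49 and HSPH1 3.89. HSP90AB1 had a wide peak of fold 18.0 from 267 to 1756 bp past its end, which was set aside because the microRNA gene MIR4647 starts within 1 kb of it. HSPA1A had only peaks within 1 kb of the start of an unnamed noncoding gene. The peaks that remained reached 3.35% to 21.7% of the promoter fold of their gene, with a median of 9.62% over the 8 members. The median was 19.5% over the 5758 genes with such a peak and Pol II at the promoter. Over the 2406 with a promoter fold of at least 60 it was 9.35%, near that of the members. In 3 of the 4 members that had both, HSPA8, DNAJB1 and HSPD1, the fold past the end was higher than anywhere in the body, and in HSP90AA1 it was lower (9.07 against 9.58). The same order was found in 33.8% of the 4699 coding genes with both kinds of peak.

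KAP1 past the 3′ end was found at HSPB1, with peaks of fold 3.23 and 3.80, and at HSPE1, with 3.17 from 4279 to 4436 bp past its end, apart from the SNHG32 and SLC35B2 starts. Past HSPB1 all 5 proteins had a peak, and the nearest Pol II, Larp7, Hexim1 and Cdk9 peaks there began 739, 749, 865 and 796 bp past the end. The KAP1 peaks began farther out, at 1716 and 3141 bp, beyond the Pol II peak, which ended at 1265 bp. No KAP1 peak lay past HSPA8, DNAJB1, HSPD1 or HSP90AA1, the members with the highest Pol II folds once peaks at other starts were set aside. KAP1 lay past the 3′ end of only 28.3% of coding genes, so its absence at so few genes is not a result about them.

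The wider chaperone network, 90 other genes listed by role, had Pol II at the promoter of 86, Hexim1 at 88, Larp7 at 86, Cdk9 at 81, KAP1 at 79 and all 5 at 75. The shares over coding genes were 73.5%, 80.7%, 77.5%, 71.9%, 67.8% and 63.0%. KAP1 at 87.8% is over all 90 network genes, of which 86 had Pol II. It was near the 88.2% of coding promoters with Pol II that had KAP1, although the sets are not quite alike. The counts of each group below are to be read against the same shares. Median folds over those with a peak were 62.4 for Pol II, 7.36 for Hexim1, 4.99 for KAP1, 4.85 for Cdk9 and 4.68 for Larp7, beside 40.4, 6.97, 4.84, 4.58 and 4.82 over coding promoters. All 5 proteins were present at all 5 heat shock factor genes and regulators, among them HSF1, the master regulator of the response, with a Pol II fold of 77.5 and a KAP1 fold of 5.65, and HSF2BP with a Pol II fold of 120. They were present at all 12 genes of the HSP90 family and its cochaperones, where HSP90B1, the HSP90 of the endoplasmic reticulum, had a Pol II fold of 130 and FKBP5 one of 120.

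Among 21 genes of the HSP70 family and its exchange factors, 20 had Pol II and 19 had KAP1. HYOU1 and BAG6 were the strongest with Pol II folds of 112 and 119, and HSPA13 had no Pol II peak. All 16 J-domain genes had Pol II and 15 had KAP1, with DNAJC3 at a Pol II fold of 105 and DNAJA1 at 84.8. All 7 genes of the mitochondrial matrix chaperones had Pol II and 6 had KAP1, and GRPEL1 and LONP1 led with Pol II folds of 99.1 and 92.9. All 6 other heat-inducible genes had the 5 proteins, among them IER5 with a Pol II fold of 123.

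Of the 14 genes of the CCT chaperonin and prefoldin, which fold actin and tubulin, 13 had Pol II, 11 had KAP1 and 9 had Cdk9. CCT7 and CCT6A had Pol II folds of 101 and 94.0, and PFDN6 had no Pol II peak. Of the 9 small heat shock protein genes other than HSPB1, 7 had Pol II, 5 had KAP1 and 4 had all 5. The strongest were IFT25, listed under its older name HSPB11, with a Pol II fold of 56.7, and HSPB6 with 38.9. CRYAA, a lens crystallin, and HSPB3 had no Pol II peak.

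By the rank of promoter fold in the 5 lists, the coding genes most like the median member at the canonical start were MBOAT7, CEP78, BAIAP2L1, TENT4A and SLC35A1, at distances of 5.36 to 10.3 percentile points. At the outermost 5′ ends they were MBD2, IFT52, MRPL41, PNPLA7 and PDE3B, at 5.07 to 11.1. No gene was in both sets. Of the members themselves, HSPA8 was nearest to the median profile at the canonical start, 17.4 points away, and HSPA1B farthest at 107. Besides HSPA1L and SLC35B2, the nearest coding genes within 10 kb that do not overlap a member were NDUFB7 at 5687 bp from DNAJB1 and CLMP at 6642 bp from HSPA8.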

How the data were processed

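ChIP-seq of HCT116 cells was analysed from the peak lists the authors deposited for 5 of 10 libraries, 1 per antibody. Per the submitters' processing notes, Bowtie 1.1 and MACS2 were used with the build hg19. The sources used here do not give the MACS2 version or settings, the control library, the depth, or how duplicate and multiply mapped reads were handled. Each deposited list gives, for a peak, the fold over background, which is a ratio, the −log10 p and −log10 q values and a display score, and the Pol II list, deposited in the narrow format, adds the distance from peak start to summit; the other 4 lists are in the broad format. Folds were therefore ranked within a list only, and no fold was compared between lists.

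Coordinates were made 1-based and intersected with GENCODE version 44 genes lifted to hg19, for coding genes of chromosomes 1 to 22, X and Y; 2 peaks on other sequences were left out. Zones were the promoter (1 kb each side of the 5′ end), the body (the rest of the gene beyond that) and 5 kb past the 3′ end, and an overlap of 1 bp counted. The planned 5′ end was the outermost annotated one. The canonical transcript start was listed as another setting, and most values are given there. The strongest peak by fold gave the value of a zone. Sequence came from the hg19 reference, and a stretch of 32 bases was called repeated when it occurred more than once on either strand. The counting was tested on simulated data. Python 3.11.15 with numpy 2.4.6, pandas 2.3.3, pysam 0.24.0, biopython 1.88 and numba 0.67.0 was used.

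The members, the split into inducible and constitutive, the network, marker and motif lists were chosen with earlier results of these data known. The genes named were all members; in each network group the 2 of highest Pol II fold and those without a Pol II peak; the 5 nearest in percentile profile; and coding neighbours within 10 kb. The values of 1 gene that this rule names are not reported here. WDR20, TECR, HSPE1-MOB4, SNORD14C, SNHG32, MIR4647 and the named markers were added after their values were seen. With 1 library per group no test was run and no p-value is given. Alternatives varied the start, the peak threshold, the number of peaks, the overlap rule and the zone widths.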

Additional observations from a re-analysis of the deposited data

How the results depend on the processing

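Under 92 other settings of 12 results, 75 values stayed near those at the outermost 5′ ends. With peaks at a −log10 q of 5 or more, 5 members kept KAP1 at the promoter, 4 Larp7, 1 Cdk9 and 1 all 5, and 1 kept KAP1 past the 3′ end. With the 20000 peaks of smallest p per list, 3 members kept Larp7 (30.6% of coding genes) and 3 all 5 (16.1%) at the promoter, and 5 kept Pol II (19.0%) and 2 KAP1 (12.8%) past the 3′ end. KAP1 along the body, found at 6 members, was found at 3 with a body from 2 kb (54.5%) and at 0 from the canonical start; KAP1 past the 3′ end was found at 1 member within 2 kb (17.4%). The ratio of median Pol II folds was 0.621, and 0.852 with HSPD1 and HSPE1 as 1 promoter. In combinations added after seeing the data, the canonical start with the stricter q gave Larp7 at 5 members, Cdk9 at 2, all 5 at 2 and KAP1 along the body at 0; with 20000 peaks it gave Larp7 at 4, all 5 at 4, Pol II along the body at 2 and KAP1 there at 0; with the middle of the peak in the zone KAP1 there was at 0. The ratio of median KAP1 folds, inducible over constitutive, was 0.973 and turned to 1.21 with the stricter q, 1.08 with 20000 peaks, 1.09 at the canonical start, 1.01 with a promoter of 500 bp and 1.04 without HSPA1A and HSPA1B. At the canonical start it was 1.103 with the stricter q, 1.09 with 20000 peaks, with the middle rule and with 500 bp, 1.103 without HSPA1A and HSPA1B and 1.06 with HSPD1 and HSPE1 as 1 promoter. The cause was not tested beyond what the settings remove by construction. No paired analysis was possible because each antibody has 1 library, so no 2 groups share a second replicate that could be paired. Depth is unknown, so missing peaks of low fold carry little weight.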
